A study of Cucumis sativus with 8 samples.

Results

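Leaf veins of cucumber (*Cucumis sativus* L.) were described here through the genes that took the most sequencing reads in wild type (WT). The 100 genes with the highest mean level over the 2 WT vein libraries were taken, out of 17783 genes measured. Levels are RPM, reads scaled to the same total of gene reads in each library, with no correction for gene length, so they are shares of reads and do not rank genes by transcript number. The study sequenced RNA of inbred line R1461 in 4 groups of 2 libraries, namely WT vein, WT fruit, R5 vein and R5 fruit, where R5 is a transgenic RNA interference line and fruits were sampled 4 d before anthesis, the opening of the flower. The labels write the target as *CsIND*, and the study's text names it *CsIVP*. All R5 libraries came from this line, so other lines were not sampled, and the labels call the libraries of a group biological replicates without saying whether plants were pooled. Between 18088985 and 22979345 reads per library on genes were recovered from the RPM values. In some libraries, both of WT vein among them, this is slightly more than the mapped reads that the study lists.

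Leaf veins hold phloem and xylem and carry green tissue around them. In green tissue, nuclear genes for chloroplast proteins supply much of the messenger RNA. They encode the antenna proteins that hold chlorophyll, the subunits of the photosystems, and the enzymes of carbon fixation in the Calvin cycle and of photorespiration, which recycles the product that forms when oxygen is fixed in place of CO2. Other genes that commonly take many reads serve protein synthesis, methyl group metabolism and water movement.

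The R5 vein libraries did not resemble each other over these 100 genes. Pearson's r of log2 RPM, taken across genes that are no independent replicates, was 0.99 between the WT vein libraries and 0.03 between the R5 vein libraries, with 0.98 between replicates in both fruit groups. R5 vein replicate 1 was the library that stood apart, and results that rest on it are given with and without it. The targeted gene *CsIVP* (Csa6G483450) was at 0 RPM in all 4 vein libraries, so vein gave no check of the R5 label. WT fruit held 49.98 and 38.3 RPM of it and R5 fruit 42.3 and 52.1 RPM, with a log2 change of 0.10 (standard error 0.21, adjusted p = 1.00 by limma). The libraries overlapped and the target was not lower in R5 fruit, so these libraries did not show the knockdown that the label states. The study itself reported less *CsIVP* transcript in R5 by quantitative PCR and less of its protein in leaf tissue by immunoblot. R5 stands throughout for the libraries labelled R5. The 10 vascular marker genes for phloem proteins and laccases, none of them at 0 in any library, summed to 155 and 135 RPM in WT vein, 156 and 137 RPM in R5 vein and 165 to 195 RPM in fruit, so their sum was not higher in vein than in fruit. That sum hid opposite moves. limma called 7 of the 10 higher and 2 lower in R5 than in WT vein, where 14.0% and 5.14% of all genes tested were called. The study had listed all 10 as changed between R5 and WT vein in these same libraries. The number called therefore follows from that choice and is no evidence. Csa2G193340, which took most of the sum in WT vein, was at 109 and 89.4 RPM there and at 23.5 and 19.5 RPM in R5 vein. The 4 chlorophyll a/b binding genes that marked green leaf tissue, all of them also among the 100 genes, summed to 23817 and 21768 RPM in WT vein, 1319 and 12007 RPM in R5 vein, 3066 and 3201 RPM in WT fruit and 2831 and 2278 RPM in R5 fruit. In bulk RNA, fewer cells of a type and less RNA per cell cannot be told apart.

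The 100 genes took 24.9% and 23.1% of the reads in the WT vein libraries, the values that chose them. They took 7.45% in R5 vein replicate 1 and 17.8% in R5 vein replicate 2. In WT fruit they took 7.09% and 7.31%, and in R5 fruit 6.84% and 6.20%. R5 vein replicate 1 was thus close to the fruit libraries, while replicate 2 lay between the fruit and the WT vein libraries. At these depths the 95% Wilson intervals of the shares, which cover counting error only, were narrow, for example 7.44% to 7.47% in R5 vein replicate 1 and 17.76% to 17.80% in R5 vein replicate 2. The R5 vein mean was 12.6% ± 7.30 (SD, n = 2) against 24.0% ± 1.26 (SD, n = 2) in WT vein, a difference of -11.4 percentage points, which was not tested because the WT vein libraries chose the genes. Without R5 vein replicate 1 it was -6.23 points and without replicate 2 it was -16.6 points.

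**Figure D1:**
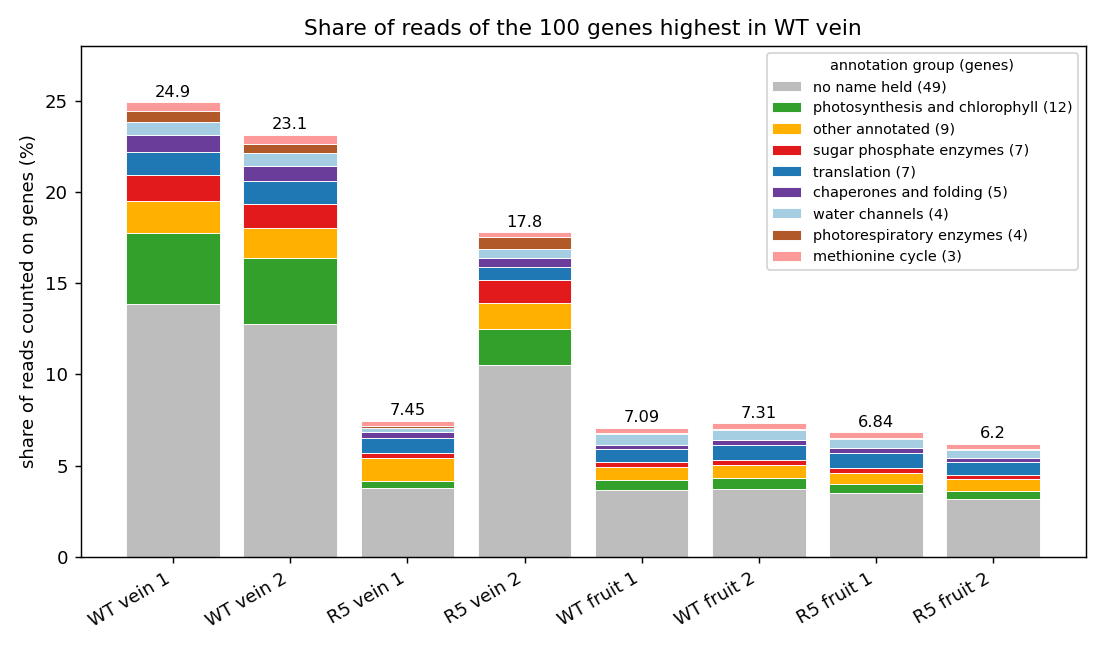
Each bar is 1 library, its height is the share of reads counted on genes that fell on the 100 genes (%), and its colors are annotation groups with the number of genes in each. The bars of WT vein reach 24.9% and 23.1%, that of R5 vein replicate 2 reaches 17.8%, and that of R5 vein replicate 1 reaches 7.45%, near the 6.20% to 7.31% of the 4 fruit libraries.

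The reads were concentrated at the top of the list. The 10 most abundant genes alone took 8.20% and 7.45% of reads in WT vein, against 1.18% and 5.60% in R5 vein, with 0.942% and 1.06% in WT fruit as against 0.902% and 0.774% in R5 fruit. The 50 most abundant took 18.9% and 17.3% in WT vein, against 3.81% and 13.3% in R5 vein, with 3.02% to 3.77% in fruit. The next 100 genes by WT vein level were closer between tissues, with 6.71% and 6.68% in WT vein, against 5.32% and 5.11% in R5 vein, with 4.73% to 5.23% in fruit. The gap between WT vein and the other libraries was thus wider, in ratio, for the first 10 genes than for the first 50. WT vein needed 797 and 890 genes to account for 50% of its reads, R5 vein 1546 and 1301 genes, and fruit 1689 to 1838 genes. The 100 most abundant genes of each other library, chosen in that library, took 12.7% and 18.8% in R5 vein, with 11.5% and 11.8% in WT fruit as against 11.9% and 10.9% in R5 fruit.

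Of the 100 genes, 96 and 98 were among the 100 highest of WT vein replicates 1 and 2, by construction. In R5 vein, 33 were among the 100 highest of replicate 1 and 77 among those of replicate 2. In WT fruit this held for 39 and 37 genes and in R5 fruit for 34 and 33. Their median rank was 281.5 in R5 vein replicate 1 and 52.5 in replicate 2, and 188.5 to 283 in the fruit libraries. Chosen from WT vein replicate 1 alone, the 100 highest genes took 24.9% of its reads and 23.1% of those of replicate 2, and 94 of them were also among the 100 highest there. The list therefore depended little on which WT vein library was used. At its lower edge, rank 98 was Csa7G014450 at 881 RPM, rank 99 Csa3G135010 at 873 RPM and rank 100 Csa3G903520 at 866 RPM, while the first genes left out were Csa3G914560 at 863 RPM, Csa6G439930 at 854 RPM and Csa4G291890 (dicarboxylate transporter 1) at 850 RPM, all as WT vein means.

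Names were held for part of the list. A name from the best *Arabidopsis* match was held for 27 genes, a Gene Ontology term gave a function for 24 others, and 49 had neither. Those names come from tables of genes that the study listed as changed between WT and R5 in these same libraries, so the direction of the named genes is no independent evidence. By annotation, 12 genes served photosynthesis and chlorophyll synthesis, 7 were sugar phosphate enzymes, 7 served translation, 5 were chaperones or peroxiredoxin, 4 were photorespiratory enzymes, 4 were water channels, 3 belonged to the methionine cycle and 9 had other annotations. The photorespiratory, methionine cycle and sugar phosphate groups were formed after values had been seen. In WT vein the genes with no name held took 13.8% and 12.8% of all reads and the photosynthesis group 3.90% and 3.58%.

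The most abundant gene was Csa5G609710, for which no name was held. It was at 23405 and 20325 RPM in WT vein, 5770 and 17976 RPM in R5 vein, 1346 and 1859 RPM in WT fruit and 617 and 867 RPM in R5 fruit. It ranked 1 in 3 vein libraries and 2 in R5 vein replicate 1, so it stayed at the top of the vein libraries although its level in replicate 1 was much lower. Csa6G139750, annotated as chlorophyll A/B binding protein 1, was the second, at 9598 and 8943 RPM in WT vein, 591 and 5657 RPM in R5 vein, 2027 and 2174 RPM in WT fruit and 2039 and 1621 RPM in R5 fruit. R5 vein replicate 1 held less of it than any fruit library, whereas replicate 2 held more than all of them. Csa5G182730, with no name held, was the third and had the strongest contrast between WT tissues of the list, at 9517 and 8172 RPM in WT vein and 13.2 and 27.5 RPM in WT fruit. R5 vein had 109 and 6430 RPM, whereas R5 fruit had 16.6 and 9.06 RPM, so it was high in 3 of 8 libraries.

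Csa6G522680 and Csa6G522690, adjacent in identifier and with no name held, were the fourth and the fifth. Csa6G522680 was at 7790 and 7238 RPM in WT vein, 240 and 5644 RPM in R5 vein, 656 and 676 RPM in WT fruit and 577 and 480 RPM in R5 fruit. Csa6G522690 was at 7140 and 6637 RPM in WT vein, 158 and 3747 RPM in R5 vein, 278 and 249 RPM in WT fruit and 326 and 163 RPM in R5 fruit. Both were therefore lower in R5 vein replicate 1 than in every fruit library. How reads that fit more than 1 place were treated is not given in the sources used here, so such neighbors, if alike in sequence, could share reads.

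Csa5G646700, annotated as light harvesting complex of photosystem II 5, was at 5996 and 5656 RPM in WT vein, 543 and 3894 RPM in R5 vein, 732 and 782 RPM in WT fruit and 615 and 576 RPM in R5 fruit. Csa2G252020, a fructose-bisphosphate aldolase that joins and splits triose phosphates in the Calvin cycle and glycolysis, was at 4839 and 4493 RPM in WT vein, 263 and 4392 RPM in R5 vein, 149 and 187 RPM in WT fruit and 105 and 83.6 RPM in R5 fruit. The aldolase gene in R5 vein replicate 2 was just below both WT vein libraries, while in replicate 1 it was closer to the fruit libraries, although above all of them. Csa6G057170 and Csa4G308550, with no name held, were likewise far lower in R5 vein replicate 1 than in replicate 2, with 4759 and 4346 RPM and 4666 and 4189 RPM in WT vein against 167 and 372 RPM in R5 vein replicate 1 and 3073 and 3049 RPM in replicate 2. In fruit both were at 307 to 500 RPM, and Csa6G057170 in R5 vein replicate 1 was below all fruit libraries.

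The last of the 10 differed from the rest. Csa2G139820, a translation elongation factor that helps the ribosome extend the protein chain, was at 4294 and 4489 RPM in WT vein, 3604 and 2169 RPM in R5 vein, 3286 and 3695 RPM in WT fruit and 4028 and 3300 RPM in R5 fruit. It was among the 4 most abundant genes of R5 vein replicate 1 and of all fruit libraries, and its lowest library was R5 vein replicate 2.

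**Figure D2:**
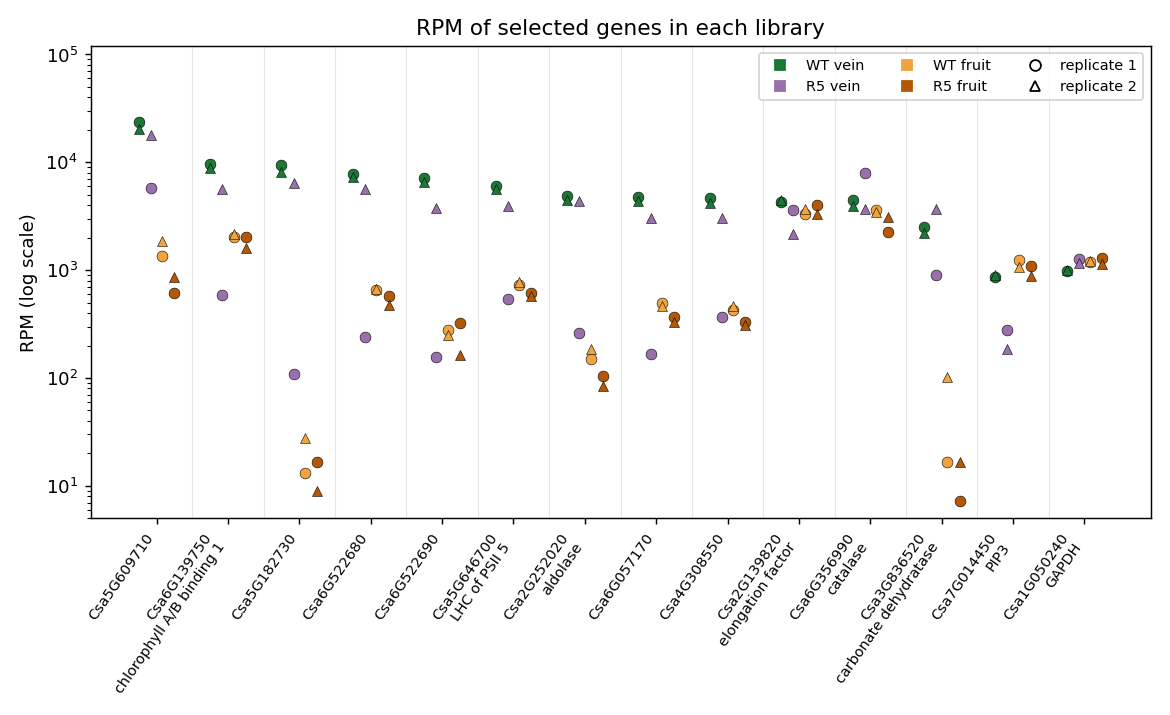
RPM on a log scale for the 10 most abundant genes of WT vein and 4 others, with 1 point per library, colors for the 4 groups and shapes for the 2 replicates. R5 vein replicate 1 (purple circles) sits with the fruit points for most genes and R5 vein replicate 2 (purple triangles) near WT vein, while the elongation factor Csa2G139820 and the GAPDH gene Csa1G050240 are close together in all libraries.

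Over the whole list, R5 vein replicate 1 was below both WT vein libraries for 89 of 100 genes, against 32.1% of all 17783 genes. R5 vein replicate 2 was below both for 80 genes, against 35.3% of all genes. For 75 genes both R5 vein libraries were below both WT vein libraries (22.1% of all tested genes) and for 4 both were above (45.1% of all tested genes). As the genes were chosen for a high WT vein level, these counts describe the list and test nothing. The libraries differed in size of the gap. Replicate 1 was under 50% of the lower WT vein library for 75 genes (10.6% of all genes) and under 10% of it for 22 genes (0.950% of all genes), while replicate 2 was under 50% for 16 genes (6.25% of all genes). The median level was 25.3% of the WT vein mean in replicate 1, from 1.02% for Csa4G165920 to 209% for Csa4G295440. It was 72.3% in replicate 2, from 21.0% for Csa7G014450 to 185% for Csa3G728130. RPM is a share, so the lower share of these genes raised the reads outside the list to 1.22 times their WT vein share in R5 vein replicate 1 and 1.08 times in replicate 2.

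The levels in R5 vein replicate 1 followed fruit more closely than WT vein. Across the 100 genes, Pearson's r of log2 RPM between R5 vein replicate 1 and the mean of WT vein was -0.07 (Spearman's rho -0.18) and with the mean of WT fruit it was 0.78 (rho 0.81). R5 vein replicate 2 showed the reverse, with 0.83 (rho 0.78) against WT vein and -0.06 (rho -0.08) against WT fruit. These correlations are across genes of single libraries and are given as descriptions, and the narrow range of WT vein levels in a list chosen on them lowers any correlation with WT vein. R5 vein replicate 1 was at or below the highest fruit library for 65 genes (67.4% of all genes) and below all fruit libraries for 33 (48.6% of all genes). The first count is near the part of all genes and the second is below it, so neither is particular to the list. R5 vein replicate 2 was above all fruit libraries for 71 genes (29.9% of all genes). Of the 100 genes, 74 were lower in R5 vein replicate 1 than in replicate 2, against 37.0% of all genes. Nothing in the labels says how the R5 vein replicates differed.

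**Figure D3:**
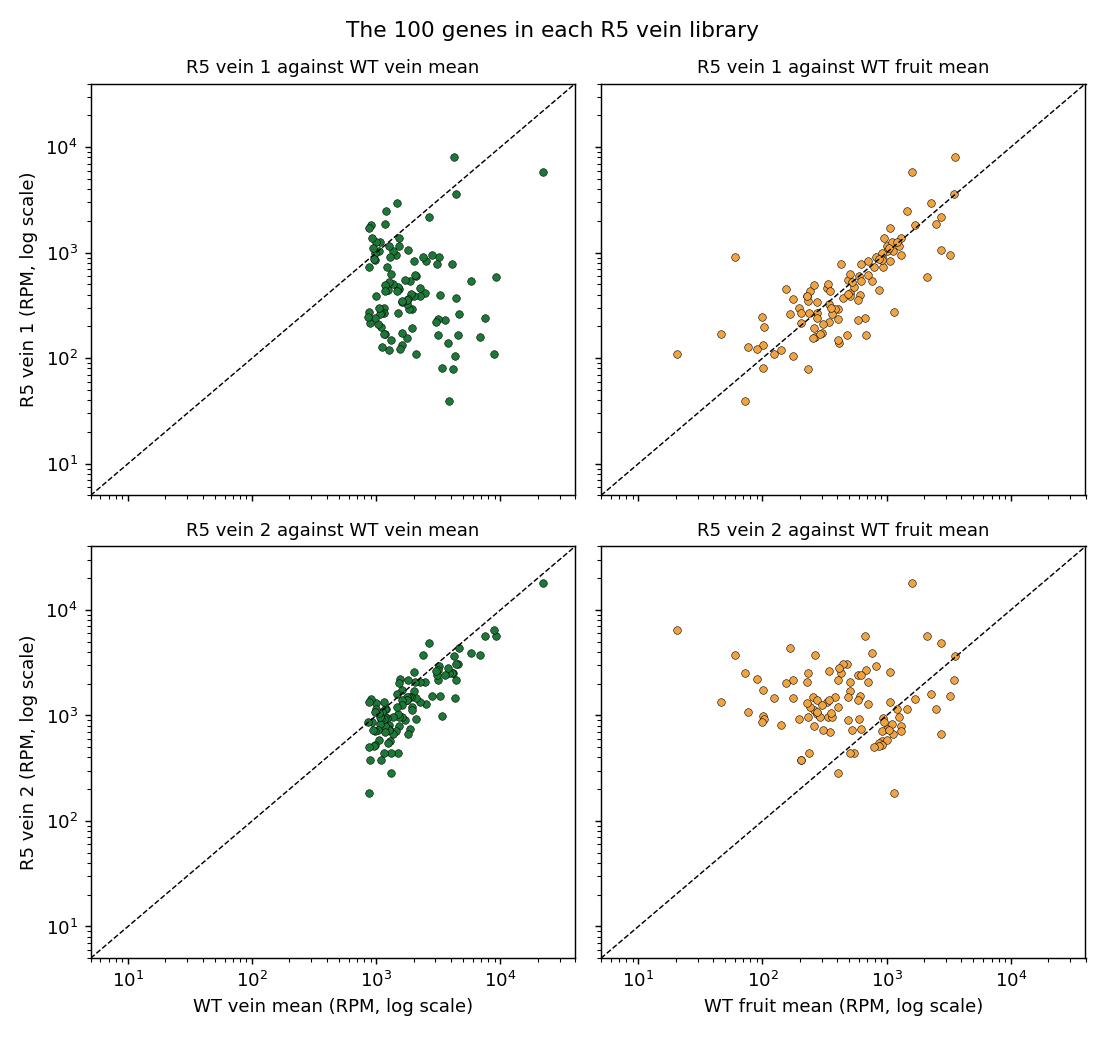
Each point is 1 of the 100 genes, in RPM on log scales, with R5 vein replicate 1 in the upper panels and replicate 2 in the lower panels, against the WT vein mean (left) and the WT fruit mean (right), and a dashed line of equality. Replicate 1 lies along the line in the WT fruit panel (r 0.78) and replicate 2 along or just under the line in the WT vein panel (r 0.83).

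The genes were then split by how far their WT fruit mean was from their WT vein mean. For 18 genes WT fruit was under 10% of WT vein, and together these took 8.43% and 7.52% of reads in WT vein, against 0.943% and 6.23% in R5 vein, with 0.388% and 0.458% in WT fruit as against 0.268% and 0.256% in R5 fruit. Their median level relative to WT vein was 6.79% in R5 vein replicate 1 and 83.7% in replicate 2. For 36 genes at 10% to 25%, these medians were 17.2% and 70.4%, and for 17 genes at 25% to 50% they were 28.7% and 59.2%. For the 29 genes at over 50% they were 90.0% and 64.2%. The further a gene's WT fruit level was below WT vein, the lower was the median in R5 vein replicate 1. The order was almost the opposite in replicate 2. The split and the medians are ratios to the same WT vein mean, which also chose the genes, so these orders are descriptions only. The last 29 genes took 4.38% and 4.44% of reads in WT vein, against 4.50% and 3.47% in R5 vein, with 4.40% and 4.50% in WT fruit as against 4.55% and 4.13% in R5 fruit, so their joint share was nearly level except in R5 vein replicate 2. They held 4 of the 7 translation genes, 2 of the 3 methionine cycle genes and 3 of the 4 water channels, and none of the photosynthesis, photorespiratory or chaperone genes.

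All 12 genes of photosynthesis and chlorophyll synthesis were lower in both R5 vein libraries than in both WT vein libraries. They were also higher in both WT vein libraries than in all fruit libraries, as were 81 of the 100 genes and 18.0% of all genes. Together they took 3.90% and 3.58% of reads in WT vein, against 0.381% and 2.02% in R5 vein, with 0.580% and 0.600% in WT fruit as against 0.487% and 0.409% in R5 fruit. Relative to WT vein, their median was 10.6% in R5 vein replicate 1 (2.39% to 31.3%) and 61.3% in replicate 2 (21.3% to 70.3%). Their joint share in R5 vein replicate 1 was thus below that of every fruit library.

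Within this group, the antenna genes Csa1G445860 and Csa3G664560, both annotated as light-harvesting chlorophyll-protein complex II subunit B1, had the widest range between libraries. Csa1G445860 was at 4586 and 4070 RPM in WT vein, 104 and 1463 RPM in R5 vein, 200 and 151 RPM in WT fruit and 160 and 61.8 RPM in R5 fruit. Csa3G664560 was at 3637 and 3098 RPM in WT vein, 80.6 and 993 RPM in R5 vein, 107 and 93.5 RPM in WT fruit and 18.1 and 19.1 RPM in R5 fruit. With the same annotation these genes may share reads, and their separate values are uncertain for that reason. Csa3G222800, a 2Fe-2S ferredoxin-like protein of the kind that carries electrons from photosystem I, was at 4224 and 3974 RPM in WT vein, 781 and 2553 RPM in R5 vein, 388 and 465 RPM in WT fruit and 268 and 282 RPM in R5 fruit. Unlike the antenna genes, it stayed above all fruit libraries in both R5 vein libraries. Csa4G638340, protochlorophyllide oxidoreductase A, which carries out a light-dependent step of chlorophyll synthesis, was at 2026 and 1868 RPM in WT vein, 293 and 1198 RPM in R5 vein and 264 to 408 RPM in fruit.

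Csa7G046130 behaved differently between the R5 vein libraries from most of the group. It is annotated as photosystem II reaction center PSB29 protein, which in *Arabidopsis* is needed for thylakoid formation. It was at 1340 and 1307 RPM in WT vein, 148 and 282 RPM in R5 vein, 413 and 398 RPM in WT fruit and 110 and 110 RPM in R5 fruit. All 4 R5 libraries were below all 4 WT libraries, and R5 vein replicate 2 was low as well, at 21.3% of the WT vein mean.

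The sugar phosphate enzymes and the photorespiratory enzymes were those in which R5 vein replicate 2 was nearest WT vein. The 7 sugar phosphate enzymes took 1.44% and 1.34% of reads in WT vein, against 0.324% and 1.25% in R5 vein, with 0.213% to 0.255% in fruit. Csa3G252490, a glyceraldehyde-3-phosphate dehydrogenase (GAPDH), which reduces the first product of carbon fixation or runs the reverse step in glycolysis, was at 2345 and 2119 RPM in WT vein, 392 and 2096 RPM in R5 vein, 225 and 236 RPM in WT fruit and 177 and 173 RPM in R5 fruit. Csa6G136020, phosphoglycerate kinase, the enzyme next to it in both pathways, was at 1690 and 1549 RPM in WT vein, 339 and 1389 RPM in R5 vein, 256 and 291 RPM in WT fruit and 234 and 226 RPM in R5 fruit. Both genes kept the order WT vein, R5 vein replicate 2, R5 vein replicate 1 and fruit.

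The GAPDH genes with adjacent identifiers were unlike each other, a pair singled out after its values were seen. Csa1G050250, annotated as GAPDH C subunit 1, was at 1169 and 1192 RPM in WT vein, 490 and 792 RPM in R5 vein, 268 and 257 RPM in WT fruit and 310 and 243 RPM in R5 fruit. Csa1G050240 was at 973 and 1001 RPM in WT vein, 1268 and 1159 RPM in R5 vein, 1202 and 1209 RPM in WT fruit and 1288 and 1150 RPM in R5 fruit. The former was highest in WT vein and the latter lowest there.

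The 4 photorespiratory enzymes took 0.608% and 0.526% of reads in WT vein, against 0.129% and 0.641% in R5 vein, with 0.0522% and 0.0623% in WT fruit as against 0.0393% and 0.0477% in R5 fruit. R5 vein replicate 2 thus held a larger share of them than either WT vein library, while replicate 1 was at 14.5% to 29.7% of the WT vein mean, gene by gene. Csa2G351700, glycine dehydrogenase, which splits glycine in mitochondria, was at 1907 and 1701 RPM in WT vein, 361 and 2152 RPM in R5 vein, 158 and 193 RPM in WT fruit and 138 and 165 RPM in R5 fruit. Csa6G497310, glycine hydroxymethyltransferase, which makes serine from glycine, was at 1234 and 1097 RPM in WT vein, 169 and 1330 RPM in R5 vein, 37.7 and 54.3 RPM in WT fruit and 13.1 and 26.7 RPM in R5 fruit. Both were above all fruit libraries in both R5 vein libraries. The others were Csa6G523470, a 2-hydroxy-acid oxidase of the family that oxidizes glycolate, and Csa1G062310, an aminomethyltransferase of the glycine cleavage system, at 130% and 79.8% of WT vein in R5 vein replicate 2.

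Csa3G836520, a carbonate dehydratase, which interconverts CO2 and bicarbonate, was at 2518 and 2218 RPM in WT vein, 909 and 3714 RPM in R5 vein, 16.6 and 102.8 RPM in WT fruit and 7.29 and 16.8 RPM in R5 fruit. It was above both WT vein libraries in R5 vein replicate 2 and below them in replicate 1, so the R5 vein libraries lay on either side of WT. Csa6G356990, a catalase, which breaks down hydrogen peroxide, was at 4437 and 3969 RPM in WT vein, 8011 and 3666 RPM in R5 vein, 3615 and 3469 RPM in WT fruit and 2250 and 3089 RPM in R5 fruit. It was the most abundant gene of R5 vein replicate 1 and ranked 3 in both WT fruit libraries.

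The 5 chaperone and peroxiredoxin genes were lower in both R5 vein libraries than in both WT vein libraries, at 28.7% to 37.6% of WT vein in replicate 1 and 44.8% to 72.0% in replicate 2. Csa1G599450, chaperonin 60 beta, a subunit of the chloroplast chaperonin that folds newly imported proteins, was at 2657 and 2419 RPM in WT vein, 843 and 1282 RPM in R5 vein, 660 and 754 RPM in WT fruit and 847 and 701 RPM in R5 fruit. Csa6G147530, chaperonin-60alpha, was at 2174 and 2003 RPM in WT vein, 599 and 935 RPM in R5 vein, 557 and 650 RPM in WT fruit and 692 and 560 RPM in R5 fruit. Csa2G122520, chloroplast heat shock protein 70-2, was at 1790 and 1592 RPM in WT vein, 547 and 904 RPM in R5 vein, 448 and 528 RPM in WT fruit and 612 and 516 RPM in R5 fruit. In these genes the R5 vein libraries were closer together than in the antenna genes, with replicate 2 at 1.52 to 1.92 times replicate 1.

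The 7 translation genes were mixed. Csa1G003540, annotated as RAB GTPase homolog E1B and by Gene Ontology as an elongation factor, was at 2408 and 2120 RPM in WT vein, 466 and 1340 RPM in R5 vein and 323 to 342 RPM in fruit. Csa1G207310, of the elongation factor Ts family, which recharges the elongation factor that brings transfer RNA to the ribosome, was at 1229 and 1080 RPM in WT vein, 270 and 439 RPM in R5 vein and 196 to 249 RPM in fruit. Csa7G073530, poly(A) binding protein 2, which binds messenger RNA tails, was at 1460 and 1445 RPM in WT vein, 946 and 719 RPM in R5 vein and 1192 to 1355 RPM in fruit. It and the elongation factor Csa2G139820 were lowest in R5 vein replicate 2, unlike Csa1G003540 and Csa1G207310.

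The 3 methionine cycle genes supply the methyl donor S-adenosylmethionine and remove its product. Csa3G822260, methionine synthase, was at 1851 and 1913 RPM in WT vein, 537 and 748 RPM in R5 vein, 605 and 630 RPM in WT fruit and 725 and 625 RPM in R5 fruit. The adenosylhomocysteinase Csa2G140370 and the methionine adenosyltransferase CsaUNG024770 were at 77.1% and 76.6% of WT vein in R5 vein replicate 1 and at 64.2% and 49.2% in replicate 2. All 3 were below both WT vein libraries in both R5 vein libraries.

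Of the 4 water channels, members of the aquaporin family, Csa6G448110, a gamma tonoplast intrinsic protein of the vacuole membrane, was at 2843 and 2820 RPM in WT vein, 945 and 1513 RPM in R5 vein, 3254 and 3180 RPM in WT fruit and 2839 and 2387 RPM in R5 fruit. Csa7G014450, plasma membrane intrinsic protein 3, was at 857 and 904 RPM in WT vein, 277 and 185 RPM in R5 vein, 1234 and 1069 RPM in WT fruit and 1103 and 887 RPM in R5 fruit. Both R5 vein libraries were below all other libraries for each of these genes. Csa5G198770 was at 2144 and 1880 RPM in WT vein, 829 and 2556 RPM in R5 vein and 940 to 1131 RPM in fruit, so here replicate 2 was the highest of the 8 libraries.

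The 3 other genes named in the tables were lower in both R5 vein libraries than in WT vein. Csa1G228960, of the lipid-transfer protein superfamily, was at 3221 and 3353 RPM in WT vein, 400 and 1541 RPM in R5 vein and 496 to 681 RPM in fruit. Csa7G051370, ketol-acid reductoisomerase, an enzyme of branched-chain amino acid synthesis, was at 1288 and 1231 RPM in WT vein, 532 and 723 RPM in R5 vein and 493 to 706 RPM in fruit. Csa1G002890, a 31-kDa RNA binding protein, was at 1139 and 1062 RPM in WT vein, 271 and 375 RPM in R5 vein and 190 to 218 RPM in fruit.

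Among the 49 genes with no name held, Csa4G165920 had the lowest level relative to WT vein in R5 vein replicate 1, at 4027 and 3670 RPM in WT vein, 39.3 and 2512 RPM in R5 vein, 62.9 and 81.2 RPM in WT fruit and 55.3 and 48.1 RPM in R5 fruit. The R5 vein libraries thus differed 63.9-fold in this gene. Against the direction of the list, Csa3G734260 was at 854 and 972 RPM in WT vein, 1813 and 1440 RPM in R5 vein, 1687 and 1681 RPM in WT fruit and 1422 and 1463 RPM in R5 fruit. Csa2G033940 was at 861 and 904 RPM in WT vein, 1731 and 1331 RPM in R5 vein, 1066 and 1059 RPM in WT fruit and 1403 and 1221 RPM in R5 fruit, and Csa7G009740 at 1492 and 1449 RPM in WT vein, 2937 and 1595 RPM in R5 vein and 2073 to 2415 RPM in fruit. These 3 and the GAPDH gene Csa1G050240 were the 4 genes above both WT vein libraries in both R5 vein libraries.

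The comparison of R5 with WT in fruit takes its difference from libraries that did not choose the genes, and was tested. Its direction rests on an R5 label that the target's reads did not bear out in these fruit libraries. log2(RPM + 0.5) was fitted with limma over the 8 libraries, and calls required a p under 0.05 after Benjamini-Hochberg adjustment over all 17778 genes tested and a 2-fold or larger change. On this scale a log2 change of 1 is close to a doubling, and changes of low genes are understated. All 100 genes entered the test. The share of the 100 genes was 6.52% ± 0.454 (SD, n = 2) in R5 fruit and 7.20% ± 0.161 (SD, n = 2) in WT fruit, a difference of -0.677 points (two-sided exact permutation p = 0.33, the smallest that 2 libraries against 2 allow). Of the 100 genes, 59 were lower in both R5 fruit libraries than in both WT fruit libraries, against 23.4% of the genes tested, and 5 were higher in both, against 23.2%. Their median log2 change was -0.31, against -0.01 over all genes tested.

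In fruit, limma called none of the 100 genes up and none down, where 0.422% and 0.0506% of the genes tested were called. At an unadjusted p under 0.05 the counts were 0 up and 2 down, against 4.77% and 2.04% of the genes tested. edgeR's quasi-likelihood test on the recovered reads called 0 in either direction, and edgeR's exact test and DESeq2 called 0 up and 1 down. Of all genes, the quasi-likelihood test called 0.332% up and 0.0337% down, the exact test 1.83% and 0.214%, and DESeq2 1.83% and 0.202%. The nearest to a call was Csa7G046130 (PSB29 protein), with a log2 change of -1.88 (standard error 0.28, adjusted p = 0.0670 by limma). Csa3G664560 (antenna protein) was at -2.40 (standard error 1.00, adjusted p = 0.725) and Csa6G497310 (glycine hydroxymethyltransferase) at -1.25 (standard error 0.88, adjusted p = 1.00). Highest among the genes whose libraries did not overlap were Csa1G597740 (chaperonin 20) at 0.32, Csa2G033940 at 0.30 and Csa7G051370 at 0.27, none of them called. The standard errors pool all 4 groups, so the spread of the R5 vein libraries enters them. That of the WT vein libraries, which chose the genes, enters them as well. A fit of the 2 fruit groups alone called 0 of the genes up and 2 down, namely Csa7G046130 and Csa3G664560. It called 1.07% of all genes up and 0.157% down. Over the list, 76 of the 100 genes had a negative log2 change in fruit, against 51.8% of the genes tested. They included all 12 photosynthesis genes (median -0.42), all 4 photorespiratory genes (median -0.43), all 4 water channels and 39 of the 49 with no name held. The 7 translation genes had a median of 0.00 and the 5 chaperone genes one of 0.13.

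The comparison of R5 vein with R5 fruit asks whether genes chosen for a high level in WT vein were also higher in vein than in fruit in libraries that did not choose them. It shares the R5 fruit libraries with the comparison above, and the WT vein libraries enter its standard errors too. The share of the 100 genes was 12.6% ± 7.30 (SD, n = 2) in R5 vein and 6.52% ± 0.454 (SD, n = 2) in R5 fruit, a difference of 6.09 points (two-sided exact permutation p = 0.33). It was 11.3 points without R5 vein replicate 1 and 0.932 points without replicate 2. limma called 20 of the 100 genes higher in R5 vein, where 8.36% of all genes tested were called, and 3 lower, where 14.1% were called. A fit of these 2 groups alone called 4 of the 100 higher, against 4.72% of all genes. Libraries did not overlap for 41 genes that were higher (23.7% of all genes) and 9 that were lower (44.1% of all genes). The median log2 difference was 1.02, against -0.20 over all genes tested, and with TMM scaling these medians were 1.21 and -0.02. Without R5 vein replicate 1 the median log2 difference was 1.96, against -0.28 over all genes, and without replicate 2 it was 0.05, against -0.13. A larger part of all genes was also called higher in each of these fits, so counts of calls from them are not read by themselves.

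Of the 18 genes whose WT fruit level was under 10% of WT vein, 10 were called higher in R5 vein than in R5 fruit, with a median log2 difference of 2.65. Of the 36 at 10% to 25%, 10 were called higher as well. None of the 46 others was called higher, where 8.36% of all genes tested were. The split uses the WT vein mean that chose the genes. Genes with little WT fruit signal also had little in R5 fruit, so this order is largely built in and is a description only. The calls in each part of the split changed when an R5 vein library was left out. By group, all 4 photorespiratory enzymes were called higher, with log2 differences of 1.77 to 4.63, as were 4 of 7 sugar phosphate enzymes, 2 of 12 photosynthesis genes, 1 of 5 chaperone and peroxiredoxin genes, 3 of 9 genes with other annotations and 6 of 49 with no name held. No translation gene and no methionine cycle gene was called in either direction. The calls of several groups, photosynthesis and translation among them, changed without R5 vein replicate 1. Those counts are not given, because that fit holds 1 R5 vein library.

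**Figure D4:**
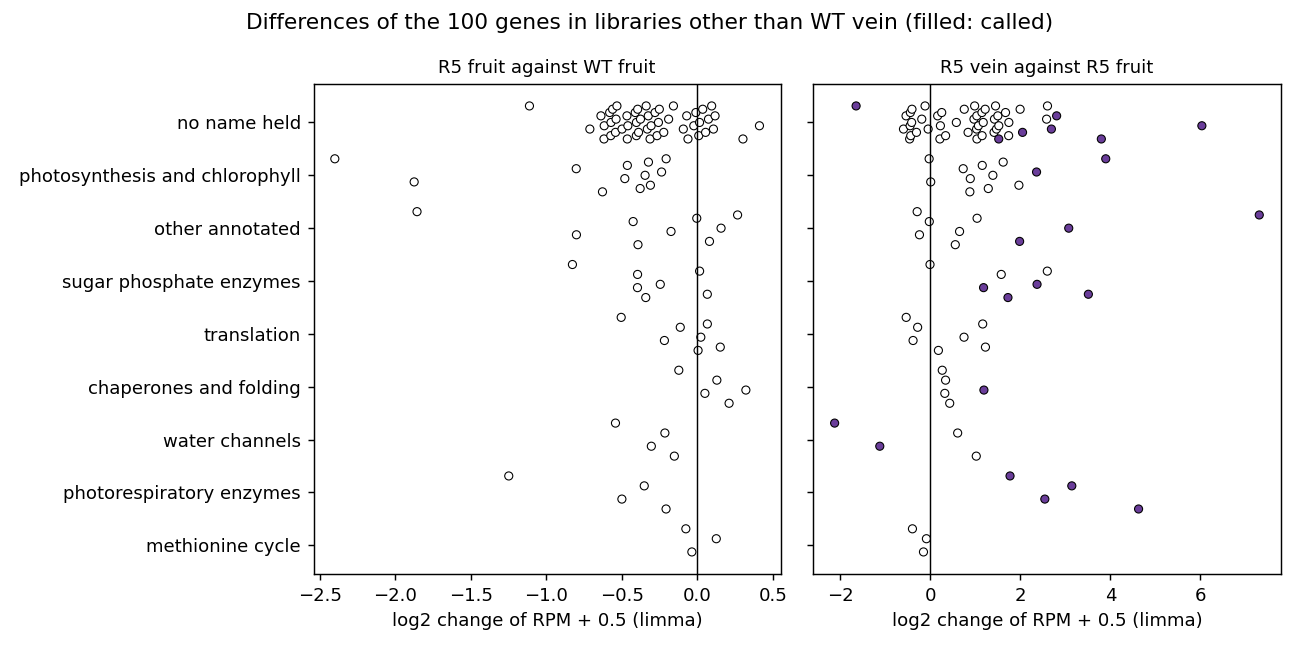
Log2 changes from the limma fit for each of the 100 genes (points), by annotation group, for R5 fruit against WT fruit (left) and R5 vein against R5 fruit (right), with filled points for called genes; vertical spread within a group only separates points. No point is filled in fruit, and 20 filled points lie to the right and 3 to the left in R5 vein against R5 fruit.

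The largest difference was that of the carbonate dehydratase Csa3G836520, which had 909 and 3714 RPM in R5 vein against 7.29 and 16.8 RPM in R5 fruit, a log2 difference of 7.31 (standard error 0.96, adjusted p = 0.00174 by limma). Csa5G182730 followed at 6.03 (standard error 1.65, adjusted p = 0.0277), a call that was lost without either WT fruit, R5 fruit or WT vein library, where adjusted p was 0.0504 to 0.132. Csa6G497310, glycine hydroxymethyltransferase, was at 4.63 (standard error 0.88, adjusted p = 0.00724, and 0.0524 without R5 fruit replicate 1). The most abundant gene of the list, Csa5G609710, was at 3.80 (standard error 0.61, adjusted p = 0.00368). In R5 vein replicate 1, however, Csa5G182730 was at 1.23% and Csa6G497310 at 14.5% of the WT vein mean.

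The 3 genes called lower in R5 vein than in R5 fruit were the water channel Csa7G014450, with a log2 difference of -2.12 (standard error 0.25, adjusted p = 0.00112), Csa4G000580, with no name held, at -1.65 (standard error 0.31, adjusted p = 0.00735), and the water channel Csa6G448110 at -1.12 (standard error 0.34, adjusted p = 0.0388). Csa4G000580 had 1058 and 669 RPM in R5 vein against 2600 and 2675 RPM in R5 fruit. The call of Csa6G448110 was lost under 15 of the alternatives tried, with its log2 difference at -0.94 under TMM scaling, and that of Csa4G000580 without R5 fruit replicate 1 (adjusted p = 0.0525) or replicate 2 (adjusted p = 0.0588).

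In the fit of R5 vein against WT vein, whose WT libraries chose the genes, limma called 20 of the 100 genes down and 0 up, where 5.14% and 14.0% of the genes tested were called, and nothing is read from these counts. The median log2 change was -1.30, against 0.20 over all genes, and with TMM scaling these medians were -1.56 and -0.04. The median standard error was 0.51 for the 100 genes and 0.21 for all genes, so the spread between libraries was larger for these genes than for most. The median log2 change was -0.46 without R5 vein replicate 1, against 0.15 over all genes, and -1.98 without replicate 2, against 0.29. Of the 20, 4 were among the 5 chaperone and peroxiredoxin genes, in which the R5 vein libraries were closer together, and 3 were among the 12 photosynthesis genes.

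Genes outside the list with the same kind of annotation were counted beside these, from lists of the study's tables and, for Gene Ontology terms, as far as held. Of all genes tested, 8.36% were called higher and 14.1% lower in R5 vein than in R5 fruit. In R5 against WT vein, 14.0% were called up and 5.14% down. Of 33 photosynthesis and chlorophyll genes named in the tables, 12 were among the 100, and 31 had a negative log2 change in R5 fruit against WT fruit with 0 called in either direction. The study listed them as changed in these libraries, so that direction is not independent. Of the 21 that were not among the 100, 5 were called higher in R5 vein than in R5 fruit and 0 lower. In R5 against WT vein, 0 of these 21 were called up and 12 down. Of 36 further chaperone and folding genes, 12 were called higher and 3 lower in R5 vein than in R5 fruit. In R5 against WT vein 20 of the 36 were called up and 4 down (median log2 change 1.67), while the 5 among the 100 were lower in R5 vein. The study listed these 36 as changed too, and the 5 were chosen for a high WT vein level. Nothing is read from the contrast for that reason. In R5 vein against R5 fruit, of 24 further genes for water transport, 3 were called higher and 7 lower. Of 47 ribosomal protein genes tested, none was among the 100, and 0 were called higher and 2 lower in R5 vein than in R5 fruit. Of 44 elongation factor genes 4 were among the 100, and of the 40 others 2 were called higher and 3 lower.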

How the data were processed

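RNA of leaf veins and fruits was sequenced in 8 libraries, 2 for each of 4 groups (WT vein, R5 vein, WT fruit and R5 fruit), and groups and replicate numbers were taken from the labels. Reads were aligned by the authors to the cucumber genome with TopHat and counted with HTSeq-count, and the deposited RPM values cover 17783 genes. Tool versions, use of strand in counting and the treatment of multiply mapped reads are not given in the sources used here. In each library 100% of values were whole multiples of the value of 1 read (0.0435 to 0.0553 RPM, tolerance 0.05 of a read), so reads were recovered. A gene with 0 reads may be at up to 0.131 to 0.166 RPM (3 reads), for counting error only. The limma p-values set a difference against the spread between libraries of a group, pooled over the 4 groups and moderated by a prior from all genes.

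The members and the lists were chosen with earlier results of these data known. Members are the 100 genes with the highest mean RPM over the 2 WT vein libraries. log2(RPM + 0.5) was fitted with 1 mean per group in limma 3.58.1 under R 4.3.3, with two-sided tests and a trended prior. A gene was tested if 2 or more libraries reached 1 RPM, which 17778 did. Residual degrees of freedom were 4 and prior degrees of freedom 2.69. P-values were adjusted by Benjamini-Hochberg over all genes tested. Alternatives were a pseudocount of 0.1 or 1, no filter, TMM factors, scaling to the reads outside the 100 genes, a fit of 2 groups, edgeR 4.0.16 (quasi-likelihood and exact test) and DESeq2 1.42.0 on recovered reads, a replicate block, no fold requirement, each library left out in turn, and lists of 50 or 200 genes or from 1 WT vein library. A block with crossed R5 vein numbers and shares without R5 vein replicate 1 were chosen after seeing the data. On the recovered reads, the quasi-likelihood test called 59 genes up and 6 down in R5 fruit against WT fruit, 2092 higher and 2101 lower in R5 vein than R5 fruit, and 1978 up and 1460 down in R5 against WT vein. The limma fit was tested on simulated data.

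Genes were named by a rule: the 10 most abundant, up to 6 per annotation group with a name in the study's tables, the 3 with the largest change per comparison and direction whose libraries do not overlap, ranks 98 to 103, and up to 6 others with a narrow Gene Ontology term. The genes Csa6G523470, Csa1G062310, Csa2G140370, CsaUNG024770 and Csa1G050240, and those named as the end of a range or for a call, were chosen after their values were seen. Of the 23999 genes of the RefSeq table (Cucumber_9930_V3), 0 matched an identifier of the files, so no coordinates or sequences are given.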

Additional observations from a re-analysis of the deposited data

Results flagged for a closer look

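In 3 of the 100 genes both R5 libraries lay below both WT libraries in one tissue and above them in the other, a pattern that 9.07% of all genes tested showed. The difference between the tissues was not tested in these genes. Csa7G051370, ketol-acid reductoisomerase, was at 532 and 723 RPM in R5 vein against 1288 and 1231 RPM in WT vein, and at 706 and 561 RPM in R5 fruit against 493 and 556 RPM in WT fruit. Its log2 change in vein minus that in fruit was -1.29. For Csa1G597740, chaperonin 20, this value was -1.41, with 436 and 696 RPM in R5 vein against 1218 and 1134 RPM in WT vein, and 470 and 403 RPM in R5 fruit against 341 and 356 RPM in WT fruit. For Csa3G734260, with no name held, it was 1.05, with 1813 and 1440 RPM in R5 vein against 854 and 972 RPM in WT vein, and 1422 and 1463 RPM in R5 fruit against 1687 and 1681 RPM in WT fruit. The WT vein libraries that chose the genes enter each of these values.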

How the results depend on the processing

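The difference in the joint share of reads kept its direction in all 3 comparisons under every alternative run. For R5 minus WT in vein this is no support, since every list was chosen for a high WT vein level. It is no support for the other comparisons either. The shares of the groups compared did not overlap, so leaving out a library could not reverse a difference. The other lists contained the main list, were part of it or shared nearly all genes with it. With libraries left out in turn, the difference was -0.998 to -0.357 points for R5 minus WT in fruit. It was 0.932 to 11.3 points for R5 vein minus R5 fruit and -16.6 to -6.23 points for R5 minus WT in vein. Counts of calls moved more. Without 1 library at a time, 4 to 62 genes were called higher and 1 to 8 lower in R5 vein than in R5 fruit, 8 to 74 down and 0 to 1 up in R5 against WT vein, and 0 to 3 down in fruit. In R5 vein against R5 fruit, the fewest were called higher without an R5 fruit library, and then less often than among all genes. Fewer than in the main fit were also called higher without a WT fruit library. In R5 against WT vein, 8 were called down without WT vein replicate 1 and 10 without replicate 2. A fit of the 2 groups compared alone gave 4 higher and 1 lower in R5 vein than R5 fruit, 3 down in R5 against WT vein and 2 down in fruit. In R5 vein against R5 fruit, edgeR's exact test called 48 and DESeq2 56 higher. In R5 against WT vein, DESeq2 called 33 down. In fruit, edgeR's exact test and DESeq2 called 1 down each. Without the fold requirement 2 were called up in R5 against WT vein. Lists of 50 and 200 genes gave 10 and 31 higher in R5 vein than R5 fruit and 10 and 33 down in R5 against WT vein, and the list of 200 gave 8 lower and 2 up. For single genes, 28 log2 changes were refitted under the alternatives, and each kept its direction. In all of them the libraries of the 2 groups did not overlap, so leaving out a library could not reverse one. That is no support.

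No label says that a replicate number marks a shared plant, batch or day, so the libraries share only a number. Deviations from group means of same-numbered libraries correlated at -0.11 between WT and R5 vein, 0.14 between WT and R5 fruit and 0.22 between R5 vein and R5 fruit. With the replicate block, 19 genes were called higher and 2 lower in R5 vein than in R5 fruit, against 8.61% and 14.1% of all genes. It called 18 down and 0 up in R5 against WT vein (5.23% and 13.9% of all genes), and 0 in fruit. With the R5 vein numbers crossed in the block, 22 were called down and 0 up in R5 against WT vein, against 5.04% and 13.7% of all genes.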
